A study of Mus musculus with 12 samples.

Results

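The genes described here are 8 components of the Notch pathway, taken by symbol: the receptors Notch1, Notch2 and Notch3, the ligands Jag1 and Jag2, and the target genes Hes1, Hey1 and Heyl. They are 8 of the 48795 genes in the expression table, and 6 of them passed the filter on low counts; Hey1 and Heyl did not. Total RNA was measured in NIH3T3, an immortalised mouse fibroblast line, and in 3 clones derived from it in which Aebp1, a gene for a secreted collagen-binding protein, was knocked out. Libraries of the wild-type parental line came from passages 6, 7 and 8, and the knockout clones F5, G5 and H7 were each sampled at passages 7, 8 and 9, giving 4 groups of 3 libraries. DMEM/F12 medium and fetal bovine serum were used for all 4 lines. The parental line is an uncloned population and each knockout line is 1 clone, so that cloning and knockout cannot be told apart. Nothing in the labels says that the passages were separate cultures. The p-values therefore measure only how far these libraries spread, which may be technical.

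Notch receptors are single-pass membrane proteins that are activated by ligands of the Jagged and Delta-like families on a neighbouring cell. Ligand binding leads to cleavage by an ADAM protease and then by gamma-secretase, and the freed intracellular domain enters the nucleus, binds RBPJ with a Mastermind co-activator and switches on genes of the HES and HEY families. HES and HEY proteins are transcriptional repressors, and Hes1 also represses its own promoter. In connective tissue the pathway is known for its part in fibroblast activation and in signalling between fibroblasts, endothelial cells and mural cells.

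Library totals lay between 22088695 and 31329735 counts. Aebp1 stood at 553 ± 76.6 CPM (counts per 1e+06 counts, scaled by edgeR's TMM factors; mean ± SD, n = 3) in the parental line, against group means between 128.3 and 193 CPM in the clones. Its transcript thus remained measurable in all 3 clones. All 10 fibroblast markers examined exceeded 1 CPM, among them Col1a1, Pdgfra and Thy1. Of these markers Lum, Dcn, Col1a1 and Col3a1 lay lower in every F5 and G5 library than in every parental and H7 library. They encode matrix proteoglycans and collagens and were singled out after their values were seen. The other fibroblast markers did not separate in this way. Lum averaged 51.5 ± 27.4 CPM in parental cells, 3.92 ± 0.942 for F5, 3.99 ± 1.89 for G5 and 44.4 ± 11.8 for H7 (n = 3 each), and Dcn 187 ± 139, 15.5 ± 5.50, 10.5 ± 4.61 and 87.8 ± 13.7 CPM in the same order. Col1a1 averaged 7319, 5113, 4671 and 6368 CPM and Col3a1 743, 262, 216 and 672 CPM, again in that order. The part of these markers in the Notch values was not tested. None of 7 endothelial and none of 6 epithelial markers exceeded 1 CPM, and Kdr, Tie1, Cldn5, Epcam and Cldn4 had 0 counts in all 12 libraries.

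The promoters of the receptors and ligands are shown because Notch1 fell in all clones and because Notch3 and Jag2 moved together across passages. RefSeq promoters of GRCm38.p6 were matched for 5 of the 8 genes, Notch1, Notch2, Notch3, Jag1 and Jag2, and the 250 bases before the start are used. Capitals mark the GC box (GGGCGG), a binding motif of SP1-family factors, and the N-box (CACNAG), a motif bound by HES repressors, on either strand and with overlapping matches counted. The Notch1 window lies at chr2:26503823-26504072 on the minus strand, the Notch3 window at chr17:32166891-32167140 on the minus strand, and the Jag2 window at chr12:112929496-112929745 on the minus strand.
Notch1: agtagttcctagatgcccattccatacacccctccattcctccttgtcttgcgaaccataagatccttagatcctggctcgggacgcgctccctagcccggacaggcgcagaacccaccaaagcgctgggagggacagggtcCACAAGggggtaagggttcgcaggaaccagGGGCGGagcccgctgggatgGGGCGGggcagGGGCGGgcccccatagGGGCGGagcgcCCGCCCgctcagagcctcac
Notch3: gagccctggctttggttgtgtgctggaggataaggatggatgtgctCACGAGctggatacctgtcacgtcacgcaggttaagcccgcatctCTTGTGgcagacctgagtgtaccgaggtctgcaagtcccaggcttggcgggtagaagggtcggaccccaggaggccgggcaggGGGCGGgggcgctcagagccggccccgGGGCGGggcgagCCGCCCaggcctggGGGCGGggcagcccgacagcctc
Jag2: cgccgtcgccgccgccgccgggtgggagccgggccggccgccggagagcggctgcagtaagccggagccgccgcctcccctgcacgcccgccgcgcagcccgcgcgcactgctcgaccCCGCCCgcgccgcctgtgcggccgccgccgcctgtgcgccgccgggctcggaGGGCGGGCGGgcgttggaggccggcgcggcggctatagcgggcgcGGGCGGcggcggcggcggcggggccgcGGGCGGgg
The Notch1 window held 5 GC boxes and 1 N-box, and its start lies inside the longer Notch1 gene span given below. The Notch3 window held 4 GC boxes and 2 N-boxes, and the Jag2 window 5 GC boxes and no N-box. Of the windows not printed, that of Notch2 held 5 GC boxes and 1 N-box, as for Notch1, and that of Jag1 held 0 of either. Any part of these motifs in the expression changes was not tested. Of 32851 promoter windows of the same length, 32.74% held a GC box and 36.67% an N-box. The motif GTGGGAA, the usual RBPJ site, was in 5.415% of those windows, the E-box CACGTG in 6.021% and the AP-1 motif TGANTCA in 6.749%, and none of the 5 windows of Notch genes held any of these letters. Base composition differed, with 66% G and C in the Notch1 window, 72% in that of Notch2, 68.8% in that of Notch3, 57.2% in that of Jag1 and 87.2% in that of Jag2. The background windows were not matched for it.

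The first comparison, of clones with parental cells, asks which Notch genes change with the knockout of Aebp1. Notch1 (ENSMUSG00000026923, chromosome 2, 26457903 to 26516663, minus strand of GRCm38) fell about 3-fold in all 3 clones. Its parental libraries of passages 6, 7 and 8 stood at 45.5, 68.0 and 56.6 CPM. The libraries of passages 7, 8 and 9 stood at 17.3, 19.0 and 19.8 CPM in F5, at 20.6, 18.4 and 20.2 CPM in G5, and at 15.0, 17.2 and 17.5 CPM in H7. All 9 clone libraries thus lay below all 3 parental libraries, and the parental libraries spread more widely (SD 11.3 CPM) than those of any clone (SD 1.15 to 1.33 CPM).

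For the mean of the 3 clones, the log2 fold change of Notch1 was −1.63 (SE 0.10, 3.10-fold lower, adjusted p = 5.59e-06). This and every adjusted p printed without a tool comes from edgeR's quasi-likelihood test with Benjamini-Hochberg adjustment over the 14704 genes tested, and a gene is called where it lies under 0.05. The log2 fold change was −1.60 in F5 (adjusted p = 4.88e-05), −1.52 in G5 (adjusted p = 5.95e-05) and −1.78 in H7 (adjusted p = 1.23e-05). In bulk RNA, fewer cells expressing a gene and less RNA per cell cannot be told apart. The call was lost only where the counts of each line were summed into 1 library (log2 fold change −1.63, adjusted p = 0.113), a setting in which edgeR called 0 genes of any kind.

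Of the 6 tested Notch genes, 2 were called in the mean of the clones, Notch1 and Notch2, both lower. Among all genes tested, 19% were called in that comparison and 10.5% were called lower. With limma on log2(TPM + 1) the calls over all genes split into 1344 higher and 963 lower, against 1257 higher and 1543 lower with edgeR on counts. These 2 settings differ in test and scaling as well as in unit. The median log2 fold change of the 6 Notch genes was −0.26, beside −0.02 over all genes. In F5 2 Notch genes were called (14.3% of all genes), in G5 2 (13.1%) and in H7 1 (19.6%). Notch1 was the only Notch gene called in every clone. Over all genes, 4.68% were called alike in the 3 clones and 2.14% were called lower in each.

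**Figure D1:**
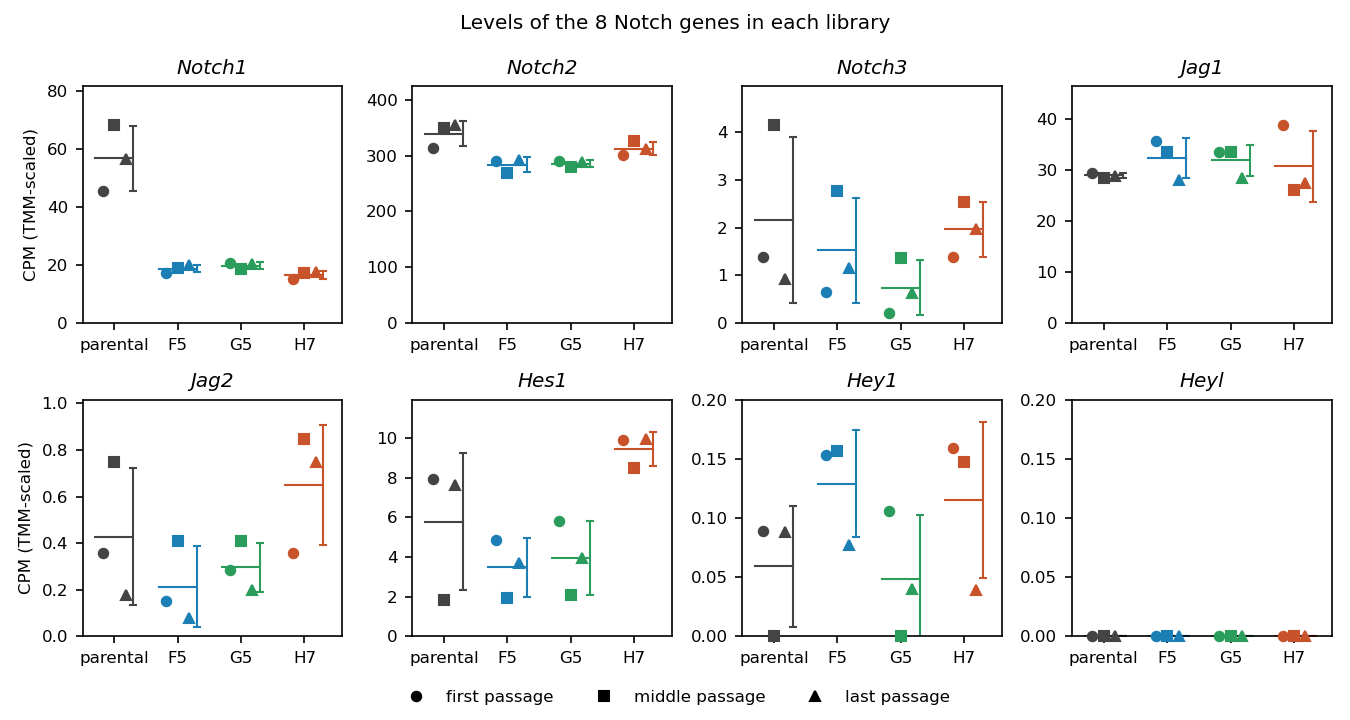
Level of each Notch gene in each of the 12 libraries, in TMM-scaled CPM (vertical axis, from 0, with its own scale in each panel), by line. Symbols give the place of the passage within the line, horizontal lines the group mean and bars the SD (n = 3); the Notch1 points of the clones lie between 15.0 and 20.6 CPM, below all parental points, and Heyl is at 0 throughout.

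Notch2 (ENSMUSG00000027878, chromosome 3, 98013527 to 98150361, plus strand) was the most abundant receptor and changed little. It stood at 313, 349 and 354 CPM in the parental libraries. The clone libraries stood at 290.1, 268 and 293 CPM in F5, 289.8, 279 and 288 CPM in G5, and 301, 326 and 312 CPM in H7. The F5 and G5 libraries lay below all parental libraries, whereas those of H7 overlapped them. On the log2 scale the change was −0.21 (SE 0.05, adjusted p = 0.022) over the mean of the clones, −0.26 in F5 (adjusted p = 0.0266), −0.25 in G5 (adjusted p = 0.0343) and −0.12 in H7 (adjusted p = 0.266). The differences of F5 and G5 from H7 were −0.14 and −0.13 and were not called (adjusted p = 0.182 and 0.229).

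These Notch2 calls lay close to the threshold. The call for the mean of the clones was lost without parental passage 7 (adjusted p = 0.0641) or without parental passage 8 (adjusted p = 0.0937). That of F5 was lost without parental passage 8, without any of the 3 F5 libraries or without G5 passage 9, at adjusted p of up to 0.0981, and that of G5 without parental passage 7 or 8, any of the 3 G5 libraries, F5 passage 9 or H7 passage 9, at adjusted p of up to 0.0998. Notch2 overlaps the annotated loci Gm42819 and Gm42820 on its own strand, which held 3111 and 1804 counts over the 12 libraries against 93583 for Notch2.

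Notch3 (ENSMUSG00000038146, chromosome 17, 32120820 to 32166852, minus strand) was scarce. The parental libraries stood at 1.39, 4.14 and 0.922 CPM. Those of the clones stood at 0.651, 2.76 and 1.16 CPM in F5, 0.212, 1.36 and 0.637 CPM in G5, and 1.39, 2.54 and 1.97 CPM in H7. The groups overlapped, and in every line the highest value was that of the middle passage. The log2 fold change for the mean of the clones was −0.74 (SE 0.54, adjusted p = 0.375) and its 95% interval ran from −1.92 to 0.44. Without parental passage 7 it was 0.17. In G5, the lowest line, it was −1.59 (SE 0.73, adjusted p = 0.181). Of 23 alternative settings 1 called Notch3 in G5. That setting was edgeR with place in the passage order as an added term (adjusted p = 0.0127).

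Because CPM does not correct for gene length, receptors were compared with each other in TPM, the authors' length-corrected unit. Notch1 made up 15.7 ± 1.96% of the summed TPM of Notch1 to Notch4 in the parental line (mean ± SD, n = 3), with 13.7% to 17.6% in single libraries. Its share was 6.53 ± 0.598% in F5, 7.24 ± 0.416% for G5 and 5.29 ± 0.479% for H7 (n = 3 each), and no clone library exceeded 7.70%. Notch2 held 82.4 ± 1.38% of receptor TPM in the parental line and between 89.8% and 91.0% on average in the clones. The summed receptor level went from 75.2 ± 7.44 TPM in the parental line to 58.4 ± 2.22 for F5, 60.8 ± 2.51 for G5 and 62.8 ± 2.55 for H7. These shares describe the libraries and were not tested.

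**Figure D2:**
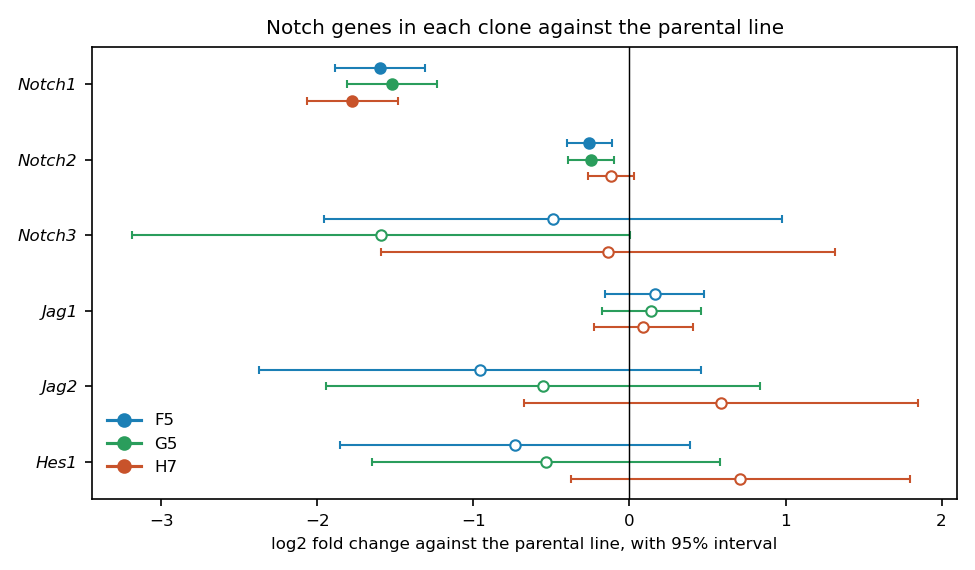
Log2 fold change of the 6 tested Notch genes in each clone against the parental line (horizontal axis), with its 95% interval from edgeR's fit to all 12 libraries. Filled points were called at an adjusted p under 0.05: Notch1 in all 3 clones, between −1.52 and −1.78, and Notch2 in F5 and G5.

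The ligand Jag1 (ENSMUSG00000027276, chromosome 2, 137081456 to 137116644, minus strand) was not called in any clone. It stood at 29.5, 28.5 and 28.9 CPM in the parental libraries. The clone libraries stood at 35.6, 33.5 and 28.0 CPM in F5, 33.6, 33.6 and 28.4 CPM in G5, and 38.8, 26.1 and 27.4 CPM in H7, so that all 3 clones overlapped the parental line. The log2 fold change for the mean of the clones was 0.13 (SE 0.12, adjusted p = 0.488), with a 95% interval from −0.13 to 0.39. In TPM, Jag1 lay above Notch1 in 1 of 3 parental libraries and in 9 of 9 clone libraries.

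Jag2 (ENSMUSG00000002799, chromosome 12, 112907819 to 112929776, minus strand), the second Jagged ligand, had 31, 19, 22 and 51 counts over the 3 libraries of the parental line, F5, G5 and H7. Its levels lay between 0.0771 and 0.847 CPM, and the groups overlapped. The log2 fold change for the mean of the clones was −0.31 (SE 0.50, adjusted p = 0.713), with a 95% interval from −1.40 to 0.78, and it was 0.39 without parental passage 7.

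Hes1 (ENSMUSG00000022528, chromosome 16, 30064384 to 30067796, plus strand), a Notch target that encodes a repressor, was the only HES or HEY gene among the 8 with more than 5 counts in any library. It stood at 7.91, 1.81 and 7.64 CPM in the parental libraries. The clone libraries stood at 4.86, 1.91 and 3.70 CPM in F5, at 5.80, 2.08 and 3.94 CPM in G5, and at 9.91, 8.47 and 9.95 CPM in H7. All 3 H7 libraries lay above the other 9 libraries, while F5 and G5 overlapped the parental line. The log2 fold change was −0.73 in F5 (SE 0.51, adjusted p = 0.384), −0.54 in G5 (SE 0.51, adjusted p = 0.548) and 0.71 in H7 (SE 0.49, adjusted p = 0.364). Averaged over the clones it was −0.19 (SE 0.41, adjusted p = 0.796), with an interval from −1.08 to 0.71. The parental libraries weighed on these values: in F5 the log2 fold change was −1.17 without parental passage 7 and −0.43 without parental passage 6, in G5 −0.96 and −0.23, and in H7 0.28 and 1.01, and none of these was called. Of 23 alternative settings, 1 called Hes1 in F5, 0 in G5 and 1 in H7. That of H7 was edgeR with place in the passage order as an added term (adjusted p = 0.0361).

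Clones were also compared with each other, since they share the knockout. With the line as the only term, edgeR called no Notch gene between any 2 clones. Over all genes, 0.258% were called between F5 and G5, 17.9% between F5 and H7 and 17.4% between G5 and H7. At an unadjusted p under 0.05 there were 0, 2 and 1 Notch genes, and DESeq2 called 1, Hes1 between F5 and H7 (adjusted p = 0.023). Hes1 stood lower in F5 than in H7 by a log2 difference of −1.44 (SE 0.51, adjusted p = 0.0733) and lower in G5 than in H7 by −1.25 (SE 0.50, adjusted p = 0.119). Without parental passage 7, which enters only through the shared estimate of spread, both differences were called (adjusted p = 0.0112 and 0.0228). Both were also called by edgeR with place in the passage order as an added term (adjusted p = 0.00248 and 0.00504). The 425 tested genes of chromosome 16, where Hes1 lies, lay at a median of 0.01 (log2 fold change) for F5, 0.00132 for G5 and 0.22 for H7, and the part of this in the Hes1 value was not tested.

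Hey1 (ENSMUSG00000040289, chromosome 3, 8663359 to 8667256, minus strand) and Heyl (ENSMUSG00000032744, chromosome 4, 123233556 to 123249875, plus strand) encode the other HES-related repressors of the set. Hey1 reached 4 counts over the 3 parental libraries, 11 over those of F5, 4 over those of G5 and 9 over those of H7, with 0 to 5 per library. Heyl had 0 counts in all 12 libraries, which allows a level of up to 0.00975 CPM (3 counts of the summed total, counting error only). Differences in either gene were not detectable at this depth.

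In order of mean TPM, the parental line ran Notch2, Notch1, Jag1, Hes1, Notch3, Jag2, Hey1 and Heyl. The ranges of Notch1 and Jag1 overlapped, as did those of Jag1 and Hes1, so that these neighbours did not differ beyond their spread. In F5 and G5 Notch1 came below Notch2, Jag1 and Hes1, and its range overlapped that of Hes1. In H7 Notch1 lay at 3.32 ± 0.237 TPM, below and not overlapping Jag1 at 10.8 ± 2.51 TPM, and Hes1 stood next to Notch2 at 11.9 ± 1.03 TPM (n = 3 each).

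The passages of a line are its only replicates, and they were compared to see whether Notch genes moved with passage in the same way in the 4 lines. The middle passage was set against the outer ones because earlier results of these data showed the middle passages deviating together. Its p-values come from those same libraries and are no independent test. Between the middle passage and the mean of the outer passages, fitted with the line as a term, 3 of the 6 tested Notch genes were called: Notch3 and Jag2 higher and Hes1 lower in the middle passage. Over all genes, 32.1% were called in this comparison, 16.5% higher and 15.6% lower. Notch3 was higher by a log2 difference of 1.42 (SE 0.25, adjusted p = 0.00251) and was highest in the middle passage in 4 of 4 lines. Hes1 was lower by −1.05 (SE 0.24, adjusted p = 0.00782) and was lowest there in 4 of 4 lines. Both calls held without each of the 12 libraries in turn.

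Jag2 was higher in the middle passage by 1.08 (SE 0.33, adjusted p = 0.0288), also in 4 of 4 lines. That pattern rests on few counts. At the first, middle and last passage Jag2 had 8, 19 and 4 counts in the parental line and 4, 13 and 2 in F5. In G5 it had 8, 9 and 5 counts, and in H7 9, 23 and 19. Its call was lost without parental passage 7 or 8, any of the 3 F5 libraries, G5 passage 8 or 9, or H7 passage 7, with adjusted p between 0.0502 and 0.103. It was also lost with a fold threshold of 1.2 (adjusted p = 0.128) and with limma on the TPM scale, where the difference was 0.17 on log2(TPM + 1) (adjusted p = 0.101) and 0.73 on log2(TPM + 0.1) (adjusted p = 0.0529). Taken as deviations from the mean of each line over the 12 libraries, log2 CPM of Notch3 had a Pearson correlation of −0.95 with that of Hes1 and of 0.82 with that of Jag2. These points share their libraries and their passages, and the values are a description. Notch1, Notch2 and Jag1 were not called, at log2 differences of 0.12, −0.00207 and −0.04.

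All 6 tested Notch genes were also fitted with a passage term for each line, and Hes1 is given first. The log2 difference of the middle from the outer passages was −2.10 in the parental line (adjusted p = 0.00401), −1.16 in F5 (adjusted p = 0.134), −1.23 in G5 (adjusted p = 0.0996) and −0.23 in H7 (adjusted p = 0.902). Over all genes, the same comparison called 23.4% in parental cells, 0% for F5, 0.551% for G5 and 0% for H7. The difference between H7 and the mean of the other 3 lines was 1.26 (SE 0.29, unadjusted p = 0.00249) and was not called over all genes (adjusted p = 0.497). Each of these rests on 1 middle library per line. The same holds for Notch3, whose log2 difference was smallest for H7, at 0.60. It was 1.61 (F5), 1.70 (G5) and 1.84 (parental), with SE between 0.48 and 0.61 over all lines. H7 minus the mean of the other 3 lines gave −1.12 for Notch3 (SE 0.58). Values of this fit for Notch1, Notch2, Jag1 and Jag2 are left out here. Between the last and the first passage, 0 Notch genes and 1.12% of all genes were called by edgeR; 1 Notch gene, Jag1, had an unadjusted p under 0.05, with a log2 difference of −0.28 (adjusted p = 0.178).

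**Figure D3:**
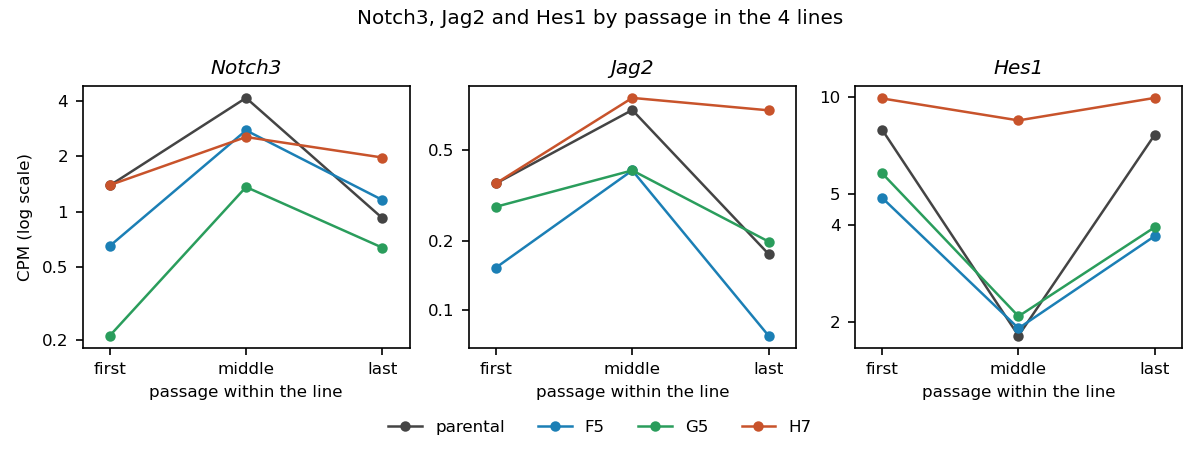
Levels of Notch3, Jag2 and Hes1 (CPM, log scale) at the first, middle and last passage of the parental line and of each clone, with 1 library per point. In each line Notch3 and Jag2 are highest and Hes1 is lowest at the middle passage; Hes1 in H7 stays between 8.47 and 9.95 CPM.

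The rest of the pathway was described through lists of 66 further genes grouped by role, of which 53 were tested. Averaged over the clones, 8 of these rose and 9 fell, at a background of 19% called, and their median log2 fold change was −0.07. In single clones 4 rose and 6 fell in F5, 4 rose and 7 fell in G5, and 8 rose and 8 fell in H7, at backgrounds of 14.3%, 13.1% and 19.6% of all genes called. Genes called higher and genes called lower stood side by side in 4 of the 7 roles, as the plot of the pathway by role shows. The counts by role below, for the mean of the clones, stand beside the same 19% of all genes. The lists are short and were chosen with earlier results known.

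Among the other receptors and ligands, 3 of 7 were tested. Dlk1, a membrane protein of the Delta-like family that lacks the domain used to bind Notch as a canonical ligand, fell in all 3 clones. It went from 3039 ± 1011 CPM in the parental line to 1616 ± 186 for F5, 1478 ± 157 for G5 and 1633 ± 46.3 for H7 (n = 3 each). The mean of the clones lay lower by −0.95 on the log2 scale (SE 0.14, adjusted p = 0.00125). The canonical ligands Dll1, Dll3 and Dll4 had between 0 and 10 counts per group. Jag1 was the only canonical Notch ligand above 1 CPM in any library.

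Of the 5 E3 ligases that act in ligand endocytosis, 1 rose and 2 fell when the clones were averaged. Mib1, the main ligase for Notch ligands, rose by 0.27 on the log2 scale (SE 0.05, adjusted p = 0.00554). Parental cells stood at 236 ± 14.6 CPM, F5 at 267 ± 5.27, G5 at 264 ± 3.18 and H7 at 323 ± 16.8 CPM. Among the clones Mib1 was called in H7 and not in F5 (adjusted p = 0.0823) or G5 (adjusted p = 0.118), and it was lower in F5 and G5 than in H7 (log2 differences −0.27 and −0.29, adjusted p = 0.0126 and 0.00914). Neurl1a fell by 0.89 on the log2 scale (SE 0.13, adjusted p = 0.000878) and was called in all 3 clones. Neurl3, with 5 to 25 counts per group, had a log2 fold change of −1.17 (adjusted p = 0.0496). It was called in H7 (−2.37, adjusted p = 0.0109) and not in F5 (−1.05, adjusted p = 0.155) or G5 (−0.08, adjusted p = 0.935). The call for the mean of the clones held only without H7 passage 7 when each library was left out in turn (adjusted p of up to 0.15 otherwise).

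Of the 8 enzymes that glycosylate the receptor, 7 were tested and 2 rose. Poglut1, which adds O-glucose, rose by 0.26 on the log2 scale (SE 0.06, adjusted p = 0.0164). Eogt, which adds O-linked N-acetylglucosamine, rose by 0.32 (SE 0.08, adjusted p = 0.0191, or 0.0639 without parental passage 7). Among the clones both were called in H7. Eogt was lower in F5 and G5 than in H7 (log2 differences −0.42 and −0.55, adjusted p = 0.0111 and 0.00246), while for Poglut1 these differences were −0.16 and −0.21 and were not called (adjusted p = 0.187 and 0.0791). Of the 10 genes of receptor cleavage, which include the gamma-secretase subunits, 1 was called. Furin, the protease that cuts the receptor on its way to the surface, fell from 125.2 ± 6.49 CPM to 82.4 ± 7.84 for F5 and 86.7 ± 5.52 for G5. In H7 it stood at 105.8 ± 0.748 CPM and was not called (log2 fold change −0.24, adjusted p = 0.0513). Averaged over the clones it fell by 0.46 on the log2 scale (SE 0.06, adjusted p = 0.000678).

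All 16 genes of the nuclear complex and its co-repressors were tested, and 1 rose and 2 fell. Rbpj, the DNA-binding partner of all Notch receptors, stood at 194 ± 35.6 CPM in the parental line and was not called (log2 fold change 0.31, SE 0.12, adjusted p = 0.0883). The Groucho-family co-repressors, which HES proteins recruit, moved in opposite directions. Tle3 fell in all 3 clones, by 0.44 on the log2 scale (SE 0.06, adjusted p = 0.000453), and Tle2 fell by 1.12 on the log2 scale (SE 0.24, adjusted p = 0.00857). Among the clones Tle2 was called in H7 (−1.66, adjusted p = 0.00451) and not in F5 (−0.79, adjusted p = 0.121) or G5 (−0.92, adjusted p = 0.0788). Without parental passage 7 the Tle2 value for the mean was −0.67 and was not called (adjusted p = 0.0515). Tle1 rose by 0.50 on the log2 scale (SE 0.11, adjusted p = 0.0117) and was called in G5 and H7.

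Among 11 inhibitors and turnover factors, 9 were tested, 2 rose and 2 fell. Numbl, a Numb-family antagonist of Notch, fell in all 3 clones, from 107.9 ± 10.6 CPM to 61.3 ± 1.99 for F5, 78.3 ± 2.82 for G5 and 80.9 ± 1.89 for H7 (log2 fold change −0.56, SE 0.06, adjusted p = 0.000113). The ubiquitin ligase Itch fell by 0.23 on the log2 scale (SE 0.05, adjusted p = 0.011) and was called in F5 and H7. Dtx4, of the Deltex family, rose in all 3 clones, by 0.72 on the log2 scale (SE 0.12, adjusted p = 0.00258). Bend6, an RBPJ-binding co-repressor, rose by 0.33 in the mean of the clones (SE 0.07, adjusted p = 0.00628) and was called in F5 and H7, while in G5 it stood at 0.15 (adjusted p = 0.252). Nrarp, a direct Notch target that feeds back on the pathway, had 0 counts in all 12 libraries.

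Of 9 other HES-related genes only 3 were tested, and all 3 were called, beside 19% of all genes. Bhlhe41 and Bhlhe40, repressors best known from the circadian clock, rose in all 3 clones. Bhlhe41 went from 2.01 ± 0.891 CPM to 8.82 ± 0.962 for F5, 6.18 ± 0.419 for G5 and 4.79 ± 0.521 for H7 (log2 fold change 1.67, SE 0.24, adjusted p = 0.000849). Bhlhe40 rose by 0.58 on the log2 scale (SE 0.08, adjusted p = 0.000678). Hes6, an inhibitor of HES1 function, fell by 0.38 on the log2 scale (SE 0.12, adjusted p = 0.0483) and was called in no single clone. The Hes6 call held only without parental passage 6 or H7 passage 8 when libraries were left out in turn (adjusted p of up to 0.201 otherwise). The direct Notch targets Hes5 and Hey2 had 0 counts in every library.

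**Figure D4:**
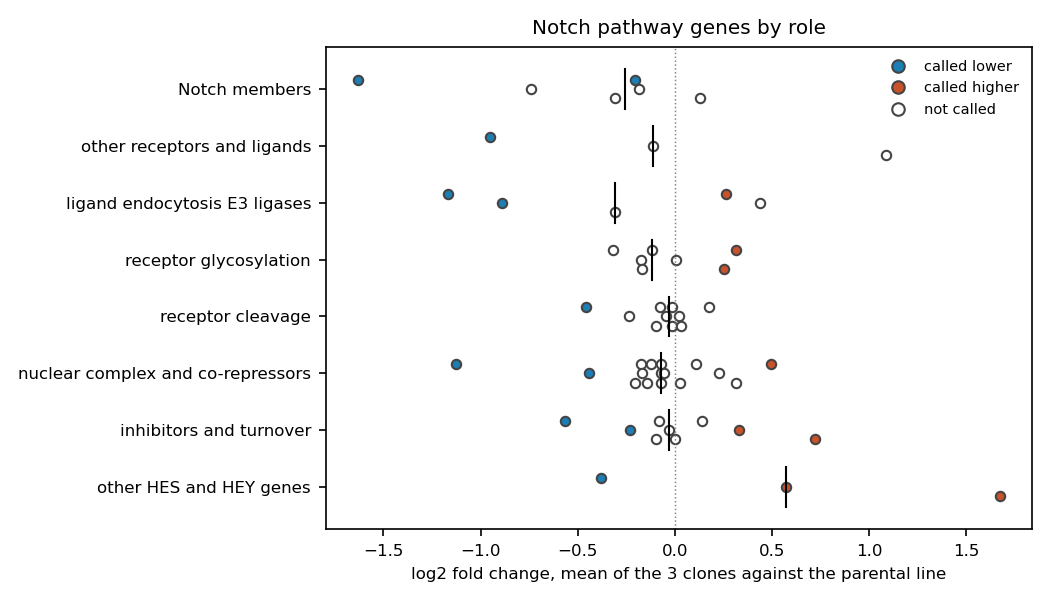
Log2 fold change averaged over the 3 clones, relative to parental cells (horizontal axis) for each tested Notch pathway gene, by role, with the list of the 8 Notch genes on top. Points are genes, coloured where called at an adjusted p under 0.05, and vertical bars are list medians; outside the 8 Notch genes 8 of 53 genes were called higher and 9 lower.

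The genes whose log2 CPM followed the called receptors most closely over the 12 libraries were taken from 11173 genes with a mean of at least 1 CPM. For Notch1 these were Col6a1, a collagen VI chain (Pearson correlation 0.983), Ehmt1, a histone methyltransferase (0.982), and Rxra, a nuclear receptor (0.981). For Notch2 they were Sec23ip (0.952), Pcsk7 (0.943) and Furin (0.936). These correlations rest on 4 groups of 3 libraries and are a description. Where these genes lie on the chromosomes relative to the 2 receptors was not examined.

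The genes around Notch1 were examined after their values had been seen. Within 1 Mb on each side of its start, 41 other genes were tested, and in the mean of the clones 9 were called lower and 0 higher, with a median log2 fold change of −0.10; over all genes 10.5% were called lower. In F5 7 were called lower (7.37% of all genes), in G5 6 (6.56%) and in H7 4 (9.92%), and 0 were called higher in any clone. Egfl7 encodes a secreted factor, and its midpoint lies 69.9 kb upstream of the Notch1 start. Egfl7 stood at 4.48 ± 0.683 CPM in parental cells, 0.457 ± 0.133 for F5, 0.218 ± 0.0925 for G5 and 3.79 ± 0.402 for H7 (n = 3 each). Agpat2, a lipid-synthesis enzyme 82.1 kb upstream, stood at 2.52 ± 0.314 CPM, 0.532 ± 0.205, 0.0767 ± 0.0798 and 4.32 ± 0.501 in the same order. Distances here are measured from the upstream end of the Notch1 gene span, whereas the printed Notch1 promoter lies inside that span.

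Egfl7 and Agpat2 thus fell in F5 (log2 fold change −3.27 and −2.21) and G5 (−4.30 and −4.91) and were not called in H7 (−0.24, adjusted p = 0.492, and 0.78, adjusted p = 0.0987). The differences of F5 and G5 from H7 were called for both genes, between −2.99 and −5.69. Apart from Egfl7 and Agpat2, no gene of the window lay as low as Notch1 in the mean of the clones. The median over the 1137 tested genes of chromosome 2 was −0.07 in the mean of the clones. It was −0.06 in F5, −0.04 in G5 and −0.13 in H7, and its part in the Notch1 values was not tested. Notch1 overlaps 0610009E02Rik and Gm13568 on the other strand, which held 320 and 32 counts over the 12 libraries against 8387 for Notch1, and no source used here gives whether counting used strand.

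**Figure D5:**
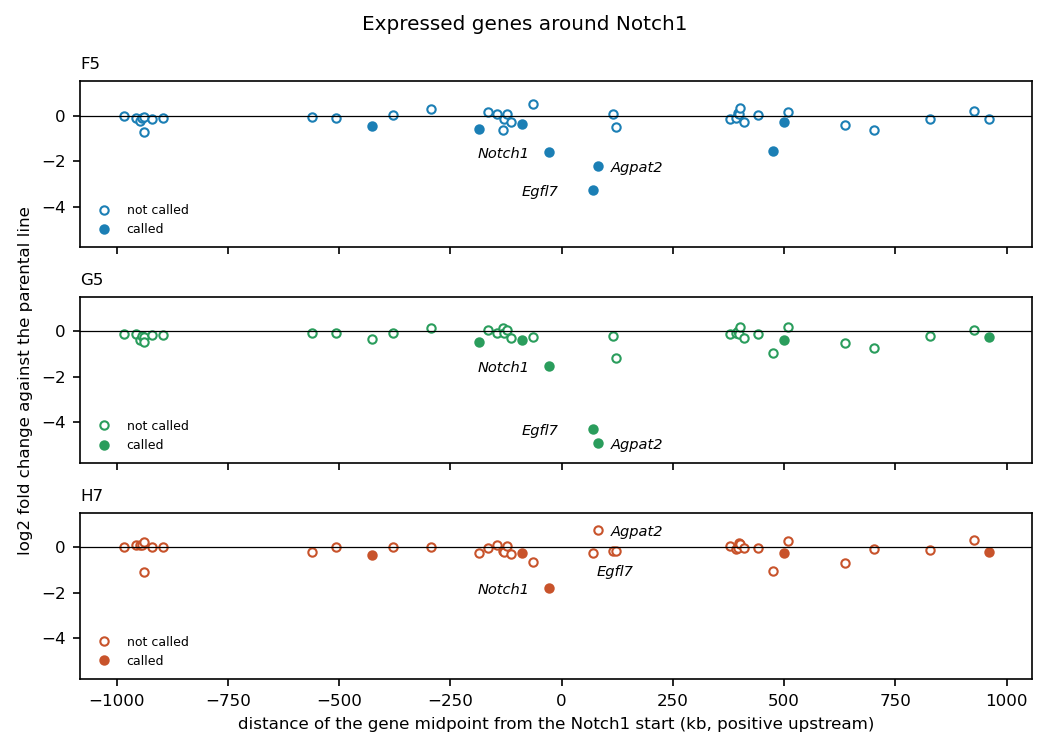
Log2 fold change against the parental line (vertical axis) of the tested genes within 1 Mb of Notch1, by the distance of the gene midpoint from the Notch1 start (horizontal axis, kb, positive upstream), in F5, G5 and H7. Filled points were called at an adjusted p under 0.05; Notch1 lies at −1.60, −1.52 and −1.78, while Egfl7 and Agpat2 are far below 0 in F5 and G5 and near or above it in H7.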

How the data were processed

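Ribosome-depleted, stranded libraries were sequenced from both ends, per the labels' protocols. The authors deposited estimated counts for 48795 Ensembl genes and the same genes in TPM; the build is GRCm38, per the submitters' processing notes, while the sources used here do not name the aligner or the annotation, or say whether counting used strand. Of the deposited counts above 0.5, 86.9% were whole to within 0.01, and all were rounded for the tests. TPM columns were used to compare levels between genes; Rn7s1 and Rn7s2 weigh heavily in them, with the leading one at 89347 to 187789 TPM.

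Identifiers were matched to GENCODE M21 (48349 with a symbol). Genes were kept by filterByExpr on the 4 groups (14704), scaled by TMM and tested with edgeR's quasi-likelihood F-test, with the line as the only term, on 12 libraries (8 residual degrees of freedom, biological coefficient of variation 15.5%). Passage comparisons added the place in the order of passages. P-values were adjusted by Benjamini-Hochberg, with calls under 0.05, and standard errors came from the F statistic. Software was edgeR 4.0.16, DESeq2 1.42.0 and limma 3.58.1 under R 4.3.3, with Python 3.11.15.

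The 8 genes, the pathway lists and the tests were chosen with earlier results of these data known. The rule named the 8 genes and Aebp1, up to 4 called genes of each list by p, and the 3 genes most correlated with each called Notch gene. Rbpj, Nrarp, the Delta-like ligands, Hes5, Hey2, Lum, Dcn, Col1a1, Col3a1 and the genes near Notch1 were named outside it, after their values were seen. Marker lists covered fibroblasts (22384 to 28077 summed CPM), endothelial cells (0.136 to 1.19), smooth muscle and pericytes (95.8 to 234, with Des and Cspg4 above 1 CPM and Kcnj8 at 0), epithelial cells (0 to 1.03) and leukocytes (4.74 to 7.93, with Csf1r and Cd68 above 1 CPM, Adgre1 and Cd3e at 0); endothelial and epithelial sums were highest in H7. Tests were run on simulated counts first. Alternatives were DESeq2, median-ratio scaling, other filters, limma on log2(TPM + 1) and log2(TPM + 0.1), a fold threshold of 1.2, passage blocks, other groupings and leaving out each library.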

Additional observations from a re-analysis of the deposited data

Results flagged for a closer look

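Of the 53 tested pathway genes outside the 8, edgeR called 11 between F5 and H7 (17.9% of all genes) and 15 between G5 and H7 (17.4%). Those named in the text above for the mean of the clones, 7 for each pair, are given here as log2 differences. Mib1 stood lower than in H7 by −0.27 in F5 and −0.29 in G5, and Eogt by −0.42 and −0.55. Furin also stood lower than in H7, by −0.36 in F5 and −0.29 in G5. Neurl1a stood higher than in H7 by 0.91 in F5 and 0.96 in G5, Bhlhe40 by 0.36 and 0.31, and Neurl3 by 2.29 in G5. Numbl differed from H7 by −0.40 in F5, Bhlhe41 by 0.88 in F5, and Bend6 by −0.27 in G5. Adjusted p of these differences ran from 0.00246 for Eogt in G5 to 0.0397 for Bend6 in G5.

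Near Notch1, Egfl7 stood below H7 by −3.03 in F5 (adjusted p = 2.99e-05) and −4.06 in G5 (adjusted p = 5.89e-06). Agpat2 stood below H7 by −2.99 in F5 (adjusted p = 0.000216) and −5.69 in G5 (adjusted p = 1.51e-05). Both genes were picked after their values were seen.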

How the results depend on the processing

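Of 76 single-gene results, 55 were called and gave 1271 values under alternatives, of which 1087 kept direction and call, 184 lost the call and 0 reversed. Notch1 stayed called except with counts summed per line. In the mean of the clones 1 Notch gene was called, not 2, with no filter on low counts, limma on log2(TPM + 1) or log2(TPM + 0.1), the fold threshold, the 9 knockout libraries as 1 group or outer passages only (added after seeing the data), and 0 with counts summed per line; leaving out libraries gave 1 to 2. In F5 and in G5 the count was also 1, not 2, with no filter, either TPM scale, the fold threshold or only the 6 libraries compared, and in G5 with outer passages only; leaving out libraries gave 1 to 2 in each. With a replicate block for place in passage order, the counts were 2 in H7, 2 for F5 against H7 and 2 for G5 against H7. Those pairs gave 1 with only the 6 libraries compared, 2 with outer passages only and, for F5 against H7, 1 with DESeq2; leaving out libraries gave 0 to 1. Leaving out libraries gave 2 to 3 calls for the middle against the outer passages.

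Passage numbers did not pair the libraries: residuals of same-numbered libraries of different lines correlated between −0.607 and 0.624, over 0.1 in 9 of 15 pairs. Those of libraries at the same place in the order correlated between 0.0519 and 0.624, over 0.1 in 16 of 18. They ran from 0.422 to 0.624 in first place, 0.422 to 0.604 in middle place and 0.0519 to 0.239 in last place. With place as the replicate block edgeR called 2288 genes higher and 2620 lower in the mean of the clones, against 1257 and 1543 without it. With passage number as a replicate block, 2 Notch genes were called in the mean of the clones, 2 in F5, 2 in G5 and 1 in H7. With place as the replicate block, Hes1 in H7 had a log2 fold change of 0.89 (adjusted p = 0.0361), Hes1 differed from H7 by −1.55 in F5 (adjusted p = 0.00248) and −1.38 in G5 (adjusted p = 0.00504), and Notch3 in G5 one of −1.55 (adjusted p = 0.0127).

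Directions turned only for results that were not called. Hes1 in the mean of the clones was 0.00549 on log2(TPM + 1), 0.0167 on log2(TPM + 0.1) and 0.00797 with counts summed per line, and −0.62 to 0.12 when leaving out libraries. Leaving out libraries gave −1.10 to 0.17 for Notch3 and −0.67 to 0.39 for Jag2 in the mean of the clones, −1.26 to 0.42 for Notch3 in F5, −0.92 to 0.14 for Jag2 in G5, −0.50 to 0.77 for Notch3 in H7 and −0.11 to 0.21 for Jag1 in H7. Notch3 in H7 was 0.063 on log2(TPM + 0.1), 0.030 with place as the replicate block and 0.55 with outer passages only. The cause was not tested. Low counts limit Notch3, Jag2, Hey1 and Heyl most.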

Other observations

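Notch4, the receptor best known from endothelial cells, was chosen after its values were seen. It stood at 1.47, 0.236 and 1.11 TPM in the parental libraries of passages 6, 7 and 8. The libraries of passages 7, 8 and 9 stood at 3.34, 0.958 and 1.03 TPM in F5, 1.75, 0.247 and 0.802 in G5, and 3.79, 0.738 and 1.69 in H7, and the groups overlapped. By edgeR's test the log2 fold change of Notch4 for the mean of the clones was 1.09 (SE 0.70, adjusted p = 0.312). The middle passage was lower than the outer passages by −1.51 (SE 0.20, adjusted p = 0.000762), and the last passage lower than the first by −1.29 (SE 0.20, adjusted p = 0.0183). Summed endothelial marker levels lay between 0.136 and 1.19 CPM, and their part in the Notch4 values was not tested.

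Lfng, a Fringe enzyme that extends the O-fucose of Notch receptors, was also chosen after its values were seen. It stood at 7.19 ± 0.676 CPM in parental cells, 7.25 ± 0.507 for F5, 4.90 ± 0.982 for G5 and 7.31 ± 0.388 for H7 (n = 3 each). By edgeR's test Lfng was lower in G5 than in the parental line (log2 fold change −0.55, SE 0.15, adjusted p = 0.0318) and lower in G5 than in H7 (−0.57, SE 0.15, adjusted p = 0.0198). The difference between F5 and G5 was 0.56 (SE 0.15, adjusted p = 0.326).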
